A study of Mus musculus with 18 samples.

Results

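Grem1, Sgk1, Thy1, Sod3, Il1rl1, Leprot and Mmd are 7 mouse genes whose mRNA and ribosome footprints were many times higher in TC1 cells carrying a guide against Nat10 (sgNAT10) than in unedited TC1 cells. They were picked from the sgNAT10 mRNA and Ribo-seq contrasts because of that rise, so the rise itself is described here without a test. All 7 have a row in each of the 3 expression tables, which hold 17379 genes (sgNAT10 mRNA), 10974 genes (sgNAT10 Ribo-seq) and 28738 genes (sgMyc mRNA), 10711 of them in all 3. The choice left out 44 other genes with at least as large an mRNA change as Leprot, the smallest of the 7. Just inside and just outside that limit stood Grb14 at 2.44 and Rab32 at 2.42 on the log2 scale, beside 2.43 for Leprot.

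TC1 is an established mouse tumour line, described by the submitters as fibrosarcoma. The sgNAT10 mRNA set compared 2 wild-type (WT) with 2 sgNAT10 libraries, Ribo-seq compared another 2 with 2, and the sgMyc mRNA set compared 3 WT libraries of its own with 3 libraries of cells carrying a guide against Myc (sgMyc). Acetylated RNA was precipitated (acRIP-seq) in 1 WT and 1 sgNAT10 library, each with 1 input. No group received a control guide, the labels do not say whether an edited line is 1 clone or a pool, and nothing states that replicates came from separate cultures, so the p-values below measure only the spread between these libraries. Expression is given in FPKM, fragments per kilobase of gene and scaled to the mapped fragments of the library. In mRNA it can be compared between genes because gene length is taken into account. In bulk RNA, more cells of a kind and more RNA per cell cannot be told apart.

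The library totals were 12795000 to 16722313 recovered reads in sgNAT10 mRNA, 1617595 to 3348687 in Ribo-seq and 51875052 to 65768024 counts in the sgMyc set. In sgNAT10 mRNA the replicates differed little beyond sampling: comparing WT libraries, 0.820% of genes, and comparing sgNAT10 libraries, 1.41%, lay past the 0.1% limit of a chi-square test of their reads. In Ribo-seq it was 36.0% and 22.9%. In the sgMyc set 1 library stood apart: sgMyc replicate 3 lay past that limit in 61.6% and 61.7% of genes against sgMyc replicates 1 and 2, which differed from each other in 12.8%. The sgMyc calls of the 7 genes are therefore given with and without that library. Where the sgMyc call of another gene is stated, the fit without that library is given if it changes the call. Other named genes have no sgMyc call stated here, and theirs may turn on that library. Nat10 mRNA, the target of the first guide, was 5.36 and 5.30 FPKM in WT and 3.59 and 3.95 in sgNAT10. Myc mRNA was 64.8, 61.6 and 70.8 FPKM in WT of the sgMyc set and 21.1, 20.9 and 34.1 in sgMyc, and it was also lower in sgNAT10 (115 and 117 FPKM in WT, 40.0 and 40.9 in sgNAT10).

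The genes belong to several routes by which a fibroblast-like cell talks to its surroundings. Grem1 encodes gremlin, a secreted protein that binds bone morphogenetic proteins (BMPs) and keeps them from their receptors. Sod3 encodes the secreted superoxide dismutase, which binds matrix and removes superoxide outside the cell. Thy1 encodes a small glycoprotein held on the cell surface by a glycosylphosphatidylinositol (GPI) anchor and is used as a marker of fibroblasts and of mouse T cells. Il1rl1 encodes ST2, the receptor of interleukin 33, made in a membrane form and in a secreted form that captures the cytokine. Sgk1 encodes a serine/threonine kinase that serum and glucocorticoids induce and that acts downstream of phosphoinositide 3-kinase and mTORC2 on ion channels and transcription factors. Leprot encodes a membrane protein of the endosome that limits how much leptin receptor reaches the surface. Mmd encodes a membrane protein of the progestin and adipoQ receptor (PAQR) family that was found in maturing macrophages. NAT10 is the acetyltransferase that makes N4-acetylcytidine in RNA, and MYC is a transcription factor of cell growth.

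On the RefSeq annotation of mouse build GRCm38.p6 the genes lie on 7 different chromosomes. Grem1 (ENSMUSG00000074934) spans chr2:113748675-113758648 on the minus strand, and the other 6 are on the plus strand. Sod3 (ENSMUSG00000072941) spans chr5:52363804-52369738 and Thy1 (ENSMUSG00000032011) chr9:44043384-44048579. Il1rl1 (ENSMUSG00000026069) spans chr1:40404864-40465418 and Sgk1 (ENSMUSG00000019970) chr10:21882184-21999903. Leprot (ENSMUSG00000035212) spans chr4:101647783-101659364 and Mmd (ENSMUSG00000003948) chr11:90249276-90278573. Il1rl1 and Sgk1 are each transcribed from several starts, and a value per gene adds up all of their transcripts.

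Since the 7 mRNAs moved together in sgNAT10, the 250 bases before their annotated starts were searched for short promoter motifs on both strands. RefSeq start sites of the same build were matched by symbol for 5 of the 7 genes, with 11 windows among them: 6 for Sgk1, 2 for Il1rl1 and 1 each for Grem1, Leprot and Mmd. The motifs were the TATA box (TATAAA), the CCAAT box (CCAAT), the GC box bound by SP factors (GGGCGG), the E-box bound by MYC and related factors (CACGTG), the AP-1 site (TGANTCA) and the core of the glucocorticoid response element (AGAACA). The windows of Grem1, Leprot and Mmd and the second of Il1rl1 are shown because they hold the combination that recurs most among these genes, a CCAAT box with GC boxes and no TATA box. The Sgk1 windows shown after them differ: one holds a TATA box with 4 GC boxes, the other holds 3 glucocorticoid element cores. Each sequence runs 5′ to 3′ on the strand of its gene, ends at the base before the start, and has every match in capitals. The start used for Mmd lies inside the span given above, so all matches shown for Mmd fall within that span. The windows shown for Il1rl1 and Sgk1 lie inside their spans too, before later starts.

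Grem1, chr2:113758649-113758898, minus strand: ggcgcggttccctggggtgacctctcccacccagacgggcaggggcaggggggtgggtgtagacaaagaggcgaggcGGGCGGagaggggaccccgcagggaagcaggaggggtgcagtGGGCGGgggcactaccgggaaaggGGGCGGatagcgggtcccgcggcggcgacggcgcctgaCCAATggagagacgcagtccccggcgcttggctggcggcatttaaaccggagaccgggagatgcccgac
Leprot, chr4:101647533-101647782, plus strand: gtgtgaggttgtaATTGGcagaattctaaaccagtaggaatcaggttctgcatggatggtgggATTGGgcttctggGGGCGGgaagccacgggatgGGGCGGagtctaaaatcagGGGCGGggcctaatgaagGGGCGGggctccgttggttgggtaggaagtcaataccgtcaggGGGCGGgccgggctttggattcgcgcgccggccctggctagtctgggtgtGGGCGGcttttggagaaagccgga
Mmd, chr11:90249226-90249475, plus strand: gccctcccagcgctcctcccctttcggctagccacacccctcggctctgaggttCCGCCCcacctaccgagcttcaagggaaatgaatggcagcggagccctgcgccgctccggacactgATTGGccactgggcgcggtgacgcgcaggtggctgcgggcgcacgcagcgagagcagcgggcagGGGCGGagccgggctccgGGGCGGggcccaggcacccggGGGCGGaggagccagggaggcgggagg
Il1rl1, chr1:40439379-40439628, plus strand: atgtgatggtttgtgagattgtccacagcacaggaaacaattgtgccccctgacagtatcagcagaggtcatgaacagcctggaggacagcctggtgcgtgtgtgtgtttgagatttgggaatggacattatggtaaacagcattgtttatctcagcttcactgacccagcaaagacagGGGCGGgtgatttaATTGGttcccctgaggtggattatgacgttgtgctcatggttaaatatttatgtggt
Sgk1, chr10:21994416-21994665, plus strand: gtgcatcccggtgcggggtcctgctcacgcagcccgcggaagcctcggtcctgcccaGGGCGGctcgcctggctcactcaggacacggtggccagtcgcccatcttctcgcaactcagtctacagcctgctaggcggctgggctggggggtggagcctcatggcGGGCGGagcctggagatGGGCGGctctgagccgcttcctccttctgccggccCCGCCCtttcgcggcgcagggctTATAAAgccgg
Sgk1, chr10:21993640-21993889, plus strand: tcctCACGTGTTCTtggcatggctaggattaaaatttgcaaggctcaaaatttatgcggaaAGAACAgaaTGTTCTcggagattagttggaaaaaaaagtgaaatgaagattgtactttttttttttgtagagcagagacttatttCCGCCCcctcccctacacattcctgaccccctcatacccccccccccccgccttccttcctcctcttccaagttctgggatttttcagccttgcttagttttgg

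GC content was 72.0% in the Grem1 window, 60.8% in that of Leprot and 74.4% in that of Mmd, against a median of 52.4% over 32851 windows of the same length. The Il1rl1 window shown had 46.4%, and the Sgk1 windows shown had 70.4% and 44.8%. The other 5 windows, 1 of Il1rl1 and 4 of Sgk1, lay between 37.6% and 48.4%, so 7 of the 11 were below the median. The CCAAT box occurred in 6 of the 11 windows and in 33.8% of all windows, and the GC box in 6 of the 11 and in 32.7% of all. The TATA box occurred in 2 of the 11, both of Sgk1, and in 12.4% of all windows. The glucocorticoid element core occurred in 3 of the 11, again all of Sgk1, and in 16.1% of all. The E-box occurred in 1 of the 11, the last Sgk1 window above, where it runs into a glucocorticoid element core so that both share bases, and in 6.02% of all windows. The AP-1 site occurred in 0 of the 11 and in 6.75% of all, which says only that these letters are not in these windows. A match is a string of letters and not a bound site.

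**Figure D1:**
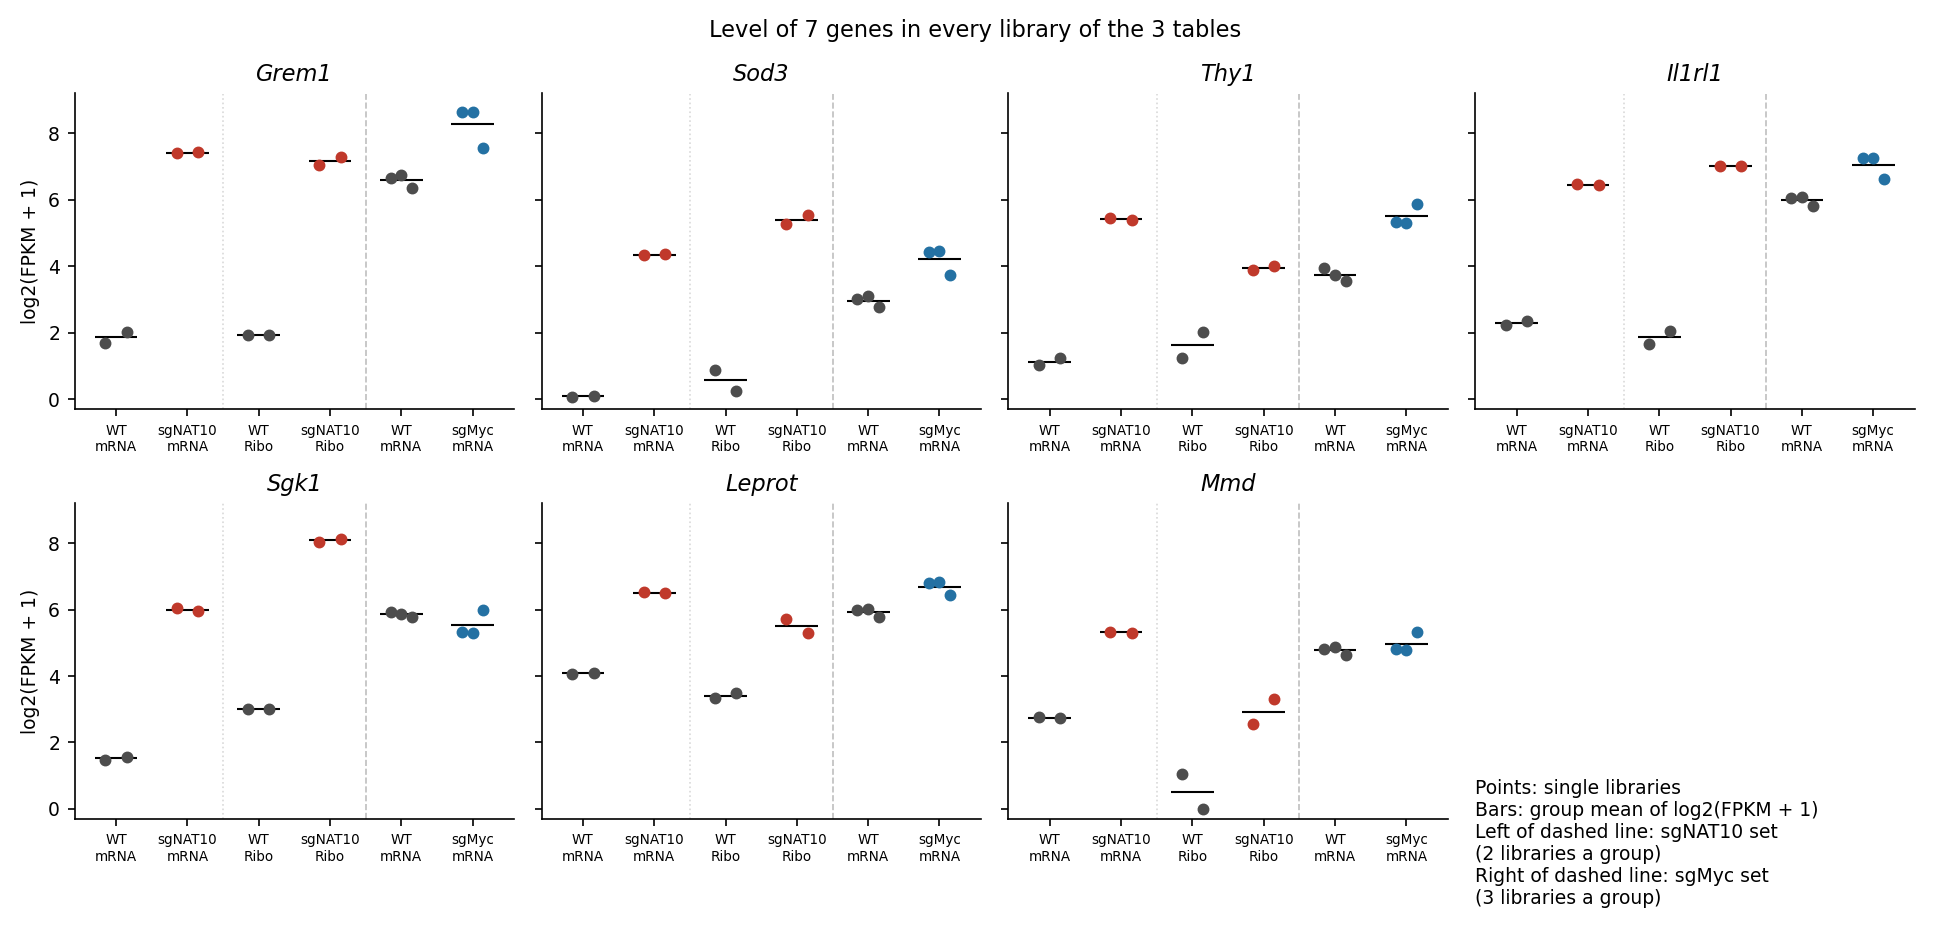
Level of each gene as log2(FPKM + 1) in every library; points are libraries, bars are group means, and the dashed line parts the sgNAT10 set (mRNA, then Ribo-seq, 2 libraries a group) from the sgMyc set (3 libraries a group). In the sgNAT10 set all edited libraries lie above all WT libraries for each of the 7 genes, and the WT libraries of the sgMyc set lie far above those of the sgNAT10 set.

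The first comparison was sgNAT10 against WT in mRNA. All 7 genes were higher in both sgNAT10 libraries than in both WT libraries, as were 43.3% of the 11735 genes tested, and by limma 63.3% of those genes were called, 33.7% higher and 29.6% lower. Since this contrast chose the 7, nothing is read from that count. The log2 changes below are on the log2(FPKM + 1) scale, which understates the change of genes near 0 in WT, so folds of the mean FPKM are given beside them.

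Of the secreted proteins, Grem1 went from 2.23 and 3.05 FPKM in the WT libraries (203 and 232 reads) to 168 and 172 in sgNAT10 (12033 and 11484 reads). Its fold of means was 64.4 and its log2 change 5.56 (SE 0.106), first of the 11735 genes. Gremlin mRNA thus passed from a low level to the highest among the 7 in sgNAT10. Sod3 was all but unread in WT, with 3 and 5 reads (0.0366 and 0.0728 FPKM), and had 1237 and 1177 reads in sgNAT10 (19.2 and 19.5 FPKM). The fold of means was 354, and from so few WT reads the 95% counting interval of the fold ran from 185 to 845 (exact binomial; it covers counting error only).

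Of the surface proteins, Thy1 went from 1.04 and 1.35 FPKM to 42.6 and 40.9, a fold of 35.1 (log2 change 4.29, SE 0.0772). Il1rl1 went from 3.65 and 4.12 FPKM to 87.7 and 85.4, a fold of 22.3 (4.16, SE 0.0554). Both groups were tight and far apart, and the order of the libraries within a group did not matter to the fold: over the 4 pairings of a WT with an sgNAT10 library it ran from 30.4 to 41.1 for Thy1 and from 20.7 to 24.0 for Il1rl1.

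Inside the cell, the kinase gene Sgk1 went from 1.79 and 1.95 FPKM to 64.8 and 61.0, a fold of 33.6 (log2 change 4.48, SE 0.0520). The membrane protein genes began higher and rose less. Leprot went from 15.8 and 16.1 FPKM to 92.1 and 88.8, a fold of 5.67 (2.43, SE 0.0339). Mmd went from 5.75 and 5.63 FPKM to 39.1 and 38.5, a fold of 6.83 (2.57, SE 0.0359). The 7 therefore fall into 5 genes with changes above 4 on the log2 scale, ranked 1, 2, 5, 6 and 7, and 2 with changes near 2.5, Mmd at rank 42 and Leprot at rank 51. In FPKM the order within sgNAT10 was Grem1, Leprot, Il1rl1, Sgk1, Thy1, Mmd and Sod3. Leprot (90.4 ± 2.32, SD, n = 2) and Il1rl1 (86.5 ± 1.66) were neighbours whose SD ranges overlapped. Thy1 (41.8 ± 1.23) and Mmd (38.8 ± 0.420) were also neighbours, with SD ranges that did not overlap.

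The second comparison was the same contrast in ribosome footprints. Every gene was again higher in both sgNAT10 libraries than in both WT libraries, beside 25.6% of the 9707 genes tested, and limma called 3.09% of those genes, 1.81% higher and 1.28% lower. Grem1 footprints went from 2.83 and 2.83 FPKM to 132 and 154, a fold of 50.4 beside 64.4 in mRNA. Sod3 went from 0.848 and 0.174 FPKM, which is 10 and 2 reads, to 37.7 and 45.1, a fold of 81.0 with a counting interval of 44.3 to 151. The Sod3 footprint fold of means lay below its mRNA fold of 354, which had a counting interval of 185 to 845. Over the pairings of libraries the Sod3 fold ran from 44.4 to 259 in footprints and from 264 to 533 in mRNA. Both counting intervals cover counting error only, not the spread between libraries. Both folds rest on very few WT reads, so no difference is read from them. On the log2(FPKM + 1) scale, where the WT level of Sod3 lies near the pseudocount, the order was the reverse, 4.84 in footprints and 4.27 in mRNA.

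Il1rl1 footprints went from 2.16 and 3.17 FPKM to 129 and 128, a fold of 48.2 that is above the 22.3 of its mRNA. Thy1 footprints went from 1.38 and 3.05 FPKM (13 and 28 reads) to 13.7 and 15.1 (147 and 78 reads), a fold of 6.52 beside 35.1 in mRNA. The surface proteins thus differed from each other: receptor footprints rose more than the mRNA and Thy1 footprints less. The counting interval of the Thy1 footprint fold was 4.61 to 9.23 and that of its mRNA fold 30.02 to 42.26. Both cover counting error only. Over the pairings of libraries the Thy1 footprint fold ran wider, from 4.51 to 11.0, and the mRNA fold from 30.4 to 41.1.

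In sgNAT10 Sgk1 had the highest footprint level of the 7, going from 7.05 and 6.98 FPKM to 260 and 281, a fold of 38.6. Leprot went from 9.02 and 10.3 FPKM to 51.5 and 38.5, a fold of 4.66. Mmd was sparse in this assay, with 12 and 0 reads in WT (1.06 and 0 FPKM) and 62 and 55 in sgNAT10 (4.85 and 8.90 FPKM). Its fold of means was 12.9, and against the WT library that had reads it was 4.56 and 8.38. On the log2 scale the footprint changes were 5.23 for Grem1 (SE 0.215), 5.15 for Il1rl1 (0.239), 5.08 for Sgk1 (0.171) and 4.84 for Sod3 (0.360), then 2.41 for Mmd (0.547), 2.31 for Thy1 (0.385) and 2.10 for Leprot (0.245).

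**Figure D2:**
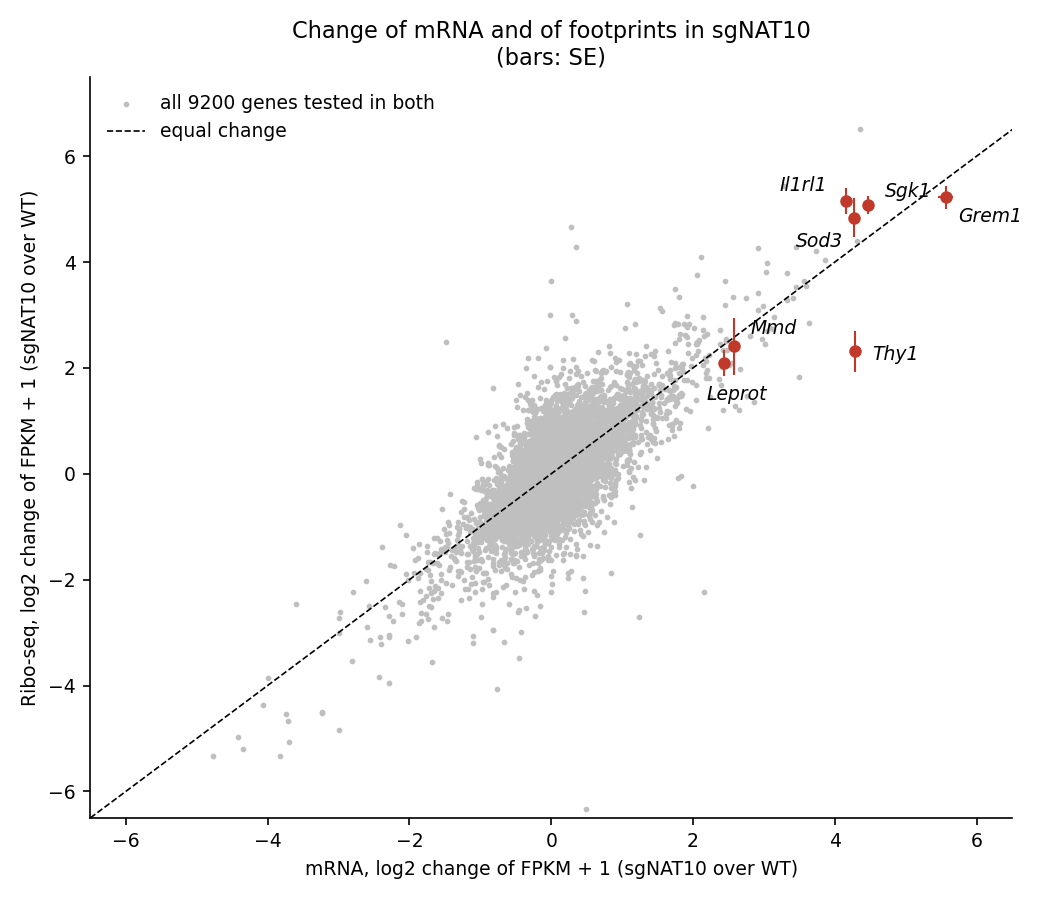
Log2 change of FPKM + 1 in sgNAT10 over WT for mRNA (x axis) and Ribo-seq (y axis); grey points are the 9200 genes tested in both, red points the 7 genes with SE bars, and the dashed line is equal change. Thy1 lies below the line, at 4.29 in mRNA and 2.31 in footprints, and the other 6 lie within about 1 of it.

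Whether footprints followed mRNA was asked of the interaction of genotype and assay, the change in footprints minus the change in mRNA. Over all 9200 genes tested, limma called 24 (0.261%), 14 higher (0.152%) and 10 lower (0.109%). For the 7 the interaction is a description. It was -1.98 for Thy1 (SE 0.366), at rank 9171 of 9200 from the top. For Il1rl1 it was 0.99 (SE 0.210) and for Sgk1 0.61 (SE 0.137). These 3 kept their sign under every alternative setting run, but Sgk1 shrank to 0.25 both with a pseudocount of 0.1 FPKM and in edgeR on recovered reads. Grem1 at -0.34 (SE 0.197) and Leprot at -0.33 (SE 0.211) were within 2 SE of 0. The fit pools the spread of both assays for each gene, so the SEs of the interaction understate the footprint noise. For Sgk1 the SE was 0.137, below the 0.171 of its footprint change alone. Sod3 at 0.57 (SE 0.343) and Mmd at -0.17 (SE 0.542) had no stable sign: with a pseudocount of 0.1 FPKM in place of 1 they turned to -0.64 and 1.54, and in edgeR on recovered reads to -2.06 and 0.89.

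The ratio of footprint FPKM to mRNA FPKM, here called ribosome load, shows the levels behind these numbers. Footprints and mRNA of a gene are scaled by the same gene length, whatever part of it is coding. A rank between genes can therefore reflect the coding share of the mRNA as well as its translation. In WT the load was 3.75 for Sgk1, at percentile 96.1 of the 9200 genes, and 0.0934 for Mmd, at percentile 1.305, around a median of 1.15 over all genes. In sgNAT10 it was 4.30 and 0.177, at percentiles 97.6 and 2.89, so by this ratio Sgk1 remained among the highest and Mmd among the lowest. Thy1 went from 1.86 to 0.345, that is from percentile 75.6 to percentile 8.87. Il1rl1 went the other way, from 0.685 to 1.48 (percentiles 26.7 and 64.7). Grem1 (1.07 and 0.839) and Leprot (0.606 and 0.498) moved little, while the WT value of Sod3 (9.34, against 2.14 in sgNAT10) rests on 8 mRNA reads and 12 footprint reads.

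**Figure D3:**
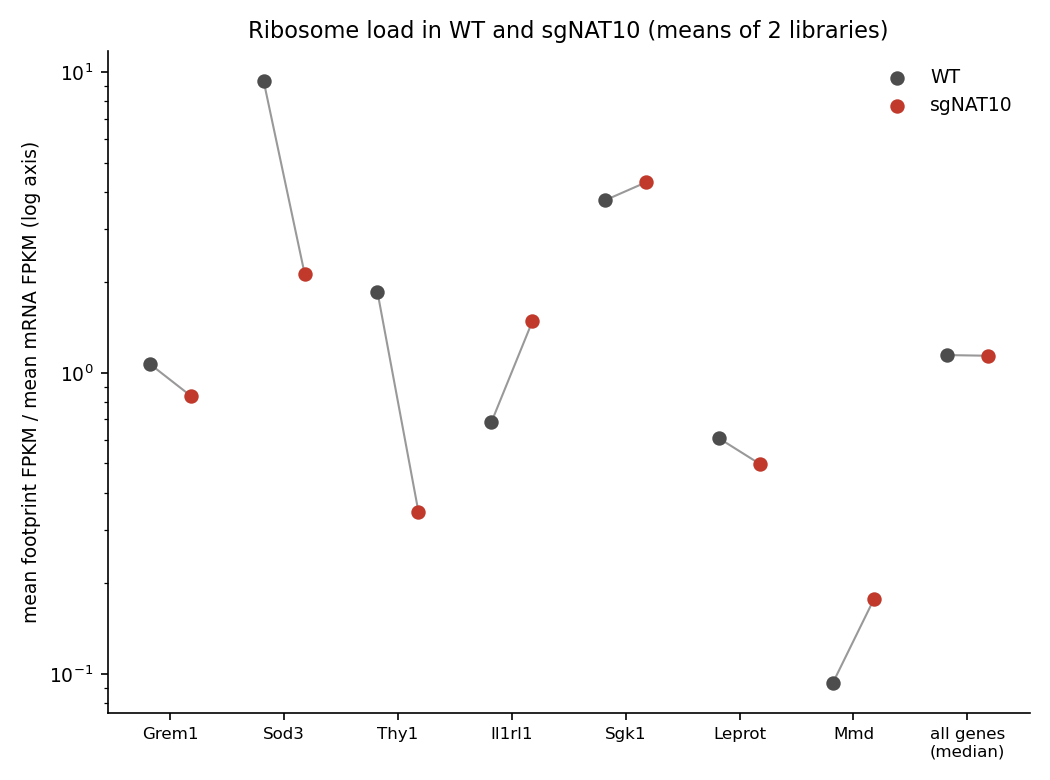
Mean footprint FPKM divided by mean mRNA FPKM (log axis) of each gene in WT (grey) and sgNAT10 (red), with the median of all 9200 genes at the right. Thy1 falls from 1.86 to 0.345 and Il1rl1 rises from 0.685 to 1.48; the WT points of Sod3 and Mmd rest on 12 footprint reads each.

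The third comparison asked whether the Myc guide shares the rise, in libraries other than those of the sgNAT10 contrasts. The genes were chosen with earlier results of these data known, so the choice is not shown to be independent of the sgMyc set. By edgeR's quasi-likelihood test with Benjamini-Hochberg adjustment over 16794 genes, 5 of the 7 were higher in sgMyc and 0 were lower, beside 16.0% of all genes called, 7.11% higher and 8.86% lower. The 5 were Thy1, Grem1, Sod3, Il1rl1 and Leprot. Sgk1 and Mmd did not pass. Without sgMyc replicate 3 the same 5 passed and Sgk1 passed as lower, beside 26.6% of all genes called higher and 26.9% called lower.

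Grem1 was 100, 106 and 80.5 FPKM in WT and 402, 400.0 and 187 in sgMyc (log2 change 1.78, SE 0.294, edgeR adjusted p = 0.0120). All 3 sgMyc libraries were above all 3 WT libraries, with replicate 3 the lowest of the sgMyc libraries. Sod3 had the same shape, at 7.08, 7.52 and 5.84 FPKM in WT and 20.7, 20.8 and 12.3 in sgMyc (1.39, SE 0.212, edgeR adjusted p = 0.00947). Thy1 was 14.3, 12.4 and 10.8 FPKM in WT and 39.4, 38.8 and 57.5 in sgMyc (1.86, SE 0.203, edgeR adjusted p = 0.00315), and here replicate 3 was the highest. Il1rl1 was 64.9, 67.0 and 55.6 FPKM in WT and 153, 152 and 98.4 in sgMyc (1.10, SE 0.177, edgeR adjusted p = 0.0112). Leprot was 62.7, 63.6 and 54.2 FPKM in WT and 111, 112 and 86.5 in sgMyc (0.78, SE 0.118, edgeR adjusted p = 0.00928). Among these 5 genes the sgMyc and WT libraries did not overlap, which held for 16.2% of all genes tested in this direction.

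Sgk1 was 59.9, 58.0 and 54.4 FPKM in WT and 39.1, 38.0 and 62.6 in sgMyc, so replicates 1 and 2 lay below every WT library and replicate 3 above (log2 change -0.30, SE 0.213, edgeR adjusted p = 0.404). Without replicate 3 its change was -0.54 (SE 0.0431, edgeR adjusted p = 6.9e-06). Mmd was 27.1, 28.5 and 24.0 FPKM in WT and 27.4, 26.4 and 39.4 in sgMyc (0.23, SE 0.180, edgeR adjusted p = 0.446), and without replicate 3 its change was 0.05 (adjusted p = 0.538). The call for Sgk1 thus turned on a single sgMyc library, and Mmd did not pass in either fit.

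As fold over the WT mean, replicates 1, 2 and 3 stood at 4.21, 4.19 and 1.97 for Grem1, at 3.03, 3.05 and 1.81 for Sod3 and at 3.15, 3.11 and 4.60 for Thy1. Il1rl1 stood at 2.46, 2.43 and 1.57. Replicate 3 thus held the smaller rise of Grem1, Sod3, Il1rl1 and Leprot and the larger rise of Thy1. The calls also depended on having all 3 WT libraries. Without WT replicate 1 or 3 only Thy1 of the 7 passed (edgeR adjusted p = 0.0246 and 0.0292), and the other 4 lay between 0.0513 and 0.0751. Without WT replicate 2, Thy1, Sod3 and Leprot passed.

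**Figure D4:**
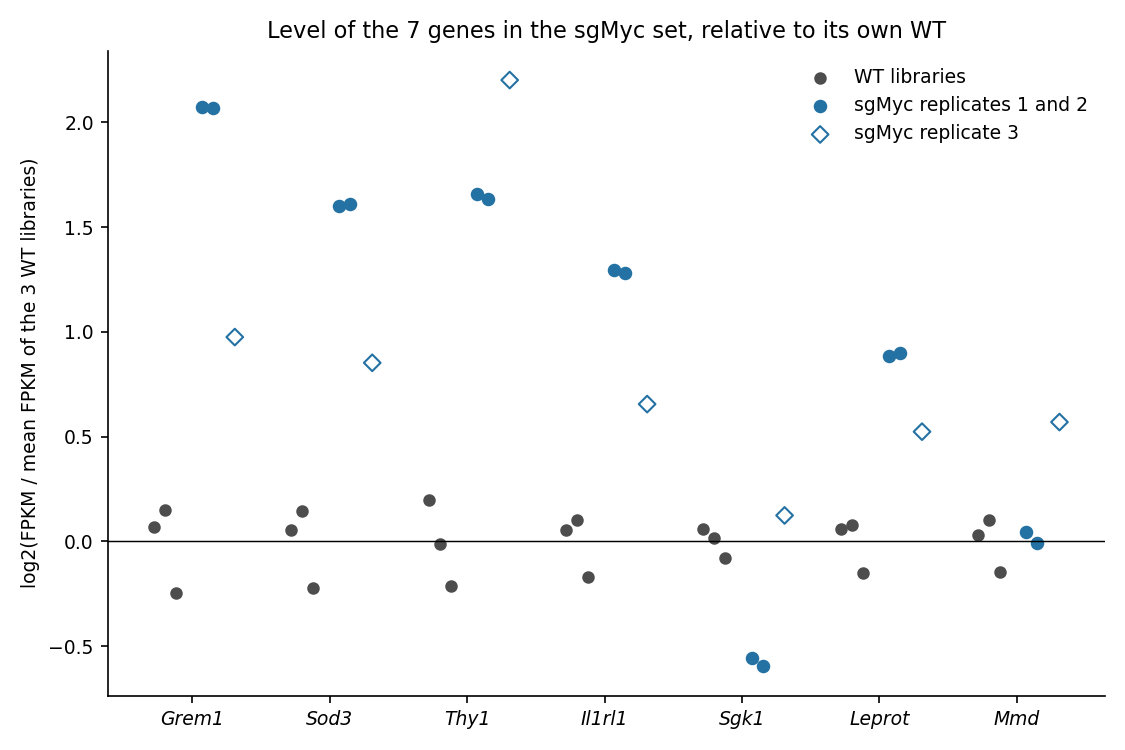
FPKM of each gene in the libraries of the sgMyc set, as log2 of its ratio to the mean of the 3 WT libraries; grey points are WT, filled blue points sgMyc replicates 1 and 2, open diamonds sgMyc replicate 3. The sgMyc points of Grem1, Sod3, Thy1, Il1rl1 and Leprot all lie above their WT points, while those of Sgk1 and Mmd fall on both sides of or among them.

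The log2 change was smaller under the Myc guide than in sgNAT10 for each of the 7. In sgMyc, Sgk1 (-0.30) and Mmd (0.23) had no rise that passed. This is a description, since the sgNAT10 arm chose the genes. The log2 change in sgNAT10 minus that in sgMyc, each against its own WT, was 4.81 for Sgk1 (SE 0.267), 3.86 for Grem1 (0.438), 3.09 for Il1rl1 (0.261), 3.02 for Sod3 (0.287), 2.53 for Thy1 (0.251), 2.37 for Mmd (0.222) and 1.67 for Leprot (0.171). Over all 10265 genes in this fit, limma called 21.0% different, 14.2% with the higher change in sgNAT10 and 6.78% with the lower.

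The 2 WT groups themselves differed at these genes. Every WT library of the sgMyc set lay above every WT library of the sgNAT10 set for all 7, beside 60.1% of the 10265 genes that averaged 1 FPKM or more in each mRNA table. Grem1 was 2.64 ± 0.574 FPKM (SD, n = 2) in WT of the sgNAT10 set and 95.4 ± 13.2 (n = 3) in WT of the sgMyc set, a ratio of 36.1. The ratio was 30.7 for Sgk1, 16.1 for Il1rl1, 10.5 for Thy1 and 125 for Sod3, the last over 8 WT reads, and 4.67 for Mmd and 3.77 for Leprot. On the log2(FPKM + 1) scale the differences ran from 1.85 to 4.73 with a median of 2.88, beside a median of 0.24 over all genes. All 7 were at least 1 higher on that scale, as were 12.1% of all genes. The 2 tables were normalized separately and the choice of the genes favours a low level in WT of the sgNAT10 set, so no test is made of these ratios.

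Set against the edited cells, WT of the sgMyc set held 0.914 times the sgNAT10 level of Sgk1, 0.722 of that of Il1rl1, 0.684 of Mmd, 0.665 of Leprot and 0.561 of Grem1. For Sod3 and Thy1 it was 0.352 and 0.299. Unedited cells of the second set therefore held 5 of the 7 mRNAs above 0.5 of the level at which they stood in sgNAT10 cells of the first. The 41 other genes with at least the change of Leprot that could be compared had a median difference between the WT groups of 2.13. Of these, 36 were at least 1 higher (log2) in WT of the sgMyc set, as were 12.1% of all genes. Their large change over WT of the sgNAT10 set likewise favours a low level there, so nothing is read from that count. What sets the WT groups apart was not tested.

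**Figure D5:**
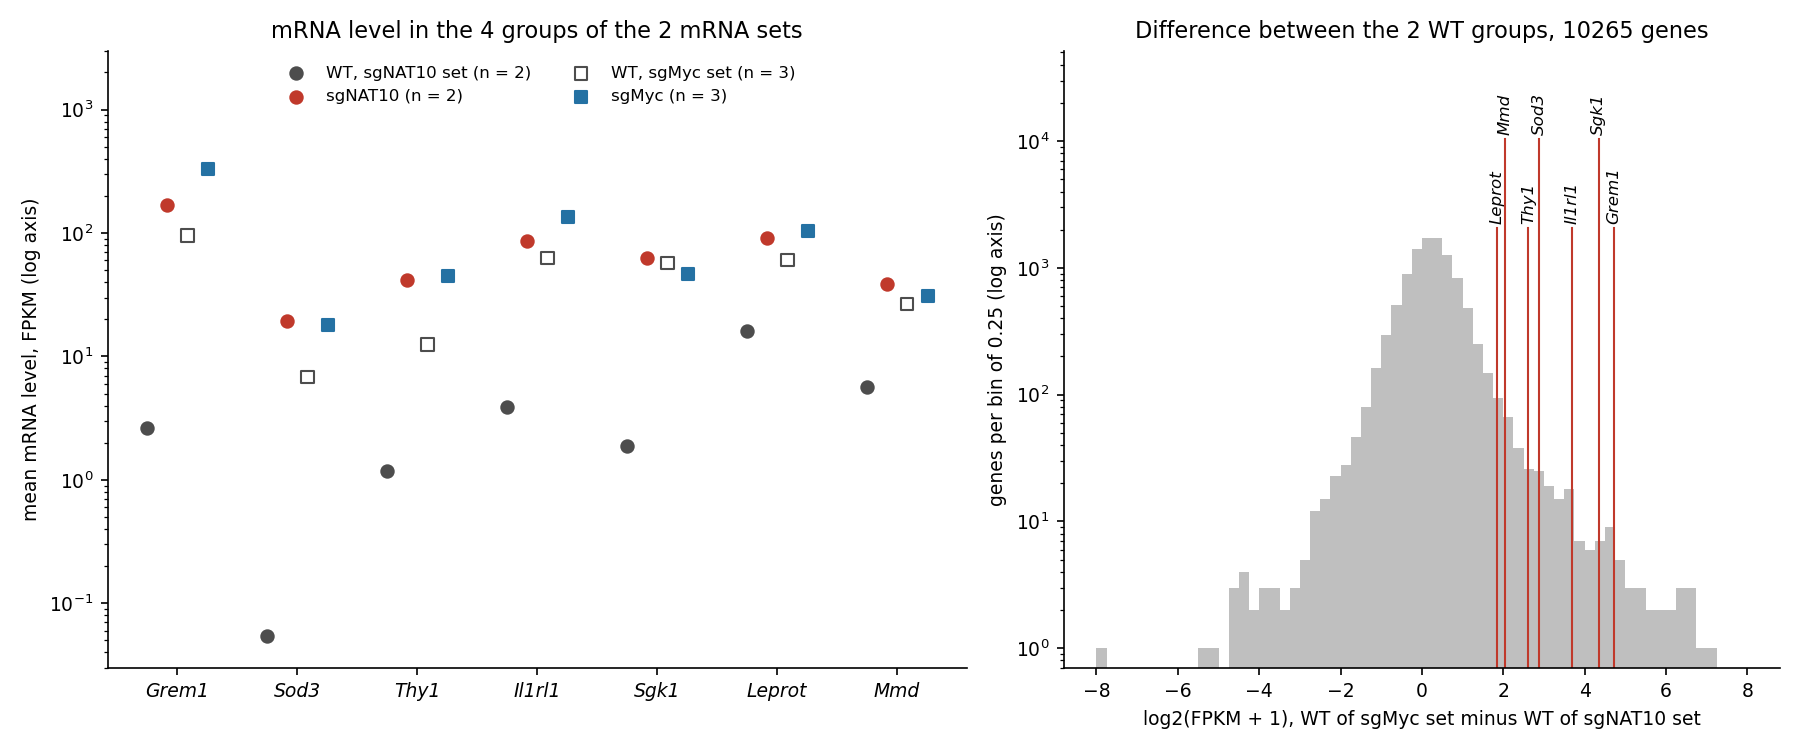
Left, mean mRNA FPKM (log axis) of each gene in the 4 mRNA groups. Right, histogram of the log2(FPKM + 1) difference between the WT groups over 10265 genes (genes per bin, log axis) with the 7 genes as red lines, which lie between 1.85 and 4.73.

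The 44 other genes with at least the mRNA change of Leprot give a frame for the 7. Of the 41 tested in Ribo-seq, all 41 had footprints at least 1 higher on the log2 scale. The share of all genes past that limit was not counted, and nothing is read from this count. Of the 43 tested in the sgMyc set, edgeR called 19 higher and 3 lower, beside 7.11% and 8.86% of all genes. Their median log2 change was 0.58 beside -0.03 over all genes. Without sgMyc replicate 3 it called 31 higher and 5 lower, beside 26.6% and 26.9% of all genes. Whether the share of the 7 that rose in sgMyc differs from that of the 44 was not tested.

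For each gene the closest patterns over the 3 log2 changes (sgNAT10 mRNA, sgNAT10 Ribo-seq, sgMyc mRNA) were sought by Euclidean distance among 9154 genes tested in all 3. Ptgs2, an inducible prostaglandin synthase, was nearest to Sod3 (distance 0.652), Il1rl1 (1.09) and Grem1 (1.4995), with changes of 4.32, 4.40 and 1.86. Fgf7, a fibroblast growth factor, was nearest to Sgk1 (1.41; changes 3.74, 4.22 and 0.54) and second to Sod3, Il1rl1 and Grem1. Cryab, a small heat shock protein, was second to Sgk1 (1.44). Thy1 was nearest to Epop (1.19; changes 3.496, 1.82 and 1.13) and Spp1, which encodes osteopontin (1.33). Epop shares with Thy1 a footprint change well under its mRNA change. The smaller changes had closer neighbours: Prrx2 (0.311) and Gas1 (0.317) for Leprot, Rab32 (0.186) and Phldb2 (0.321) for Mmd.

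The genes next to the 7 on their chromosomes were read for signs of a shared rise. Of 28 neighbours (2 protein-coding genes on each side), 11 were tested in sgNAT10 mRNA, with 8 higher and 2 lower and a median log2 change of 0.32 beside 0.01 over all genes, of which 33.7% were called higher and 29.6% lower. In Ribo-seq 10 were tested by limma and 0 passed in either direction. In the sgMyc set 17 were tested, 2 higher and 2 lower, beside 7.11% and 8.86% of all genes, and 4 and 4 without sgMyc replicate 3, beside 26.6% and 26.9%. Hlf, a transcription factor gene 58.0 kb from Mmd, rose from 0.281 ± 0.0402 to 5.73 ± 0.0255 FPKM in sgNAT10 mRNA (log2 change 2.39, SE 0.0681, limma adjusted p = 1.9e-05) and did not pass in sgMyc (0.22, edgeR adjusted p = 0.736), though without sgMyc replicate 3 it passed as higher (0.61, edgeR adjusted p = 0.00286). The second genes out on either side of Il1rl1 rose in sgNAT10 mRNA. The receptor gene Il1r1 went from 2.71 ± 0.132 to 8.18 ± 0.240 FPKM (1.31, limma adjusted p = 4.9e-05). Il18rap, a subunit of the interleukin 18 receptor, went from 0.406 ± 0.0379 to 2.16 ± 0.0627 (1.17, limma adjusted p = 0.000212). Of the genes nearer to Il1rl1, Il1rl2 was at 0.0575 FPKM in WT and 0.0219 in sgNAT10. Il18r1 had no sgNAT10 mRNA value, so neither of these was tested there. Il1r1 mRNA rose in sgMyc too (0.98, edgeR adjusted p = 0.0296). In sgNAT10 its footprints did not pass (-0.12, limma adjusted p = 0.917).

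Around Grem1, Fmn1, a formin gene 31.9 kb away, had 1.77 ± 0.0354 FPKM in WT and 0.0961 ± 0.0292 in sgNAT10, with no test because its mean was under 1 FPKM, and it fell in sgMyc (-2.63, SE 0.457, edgeR adjusted p = 0.0143). Scg5, on the other side, was at 0.0464 and 0.456 FPKM. Lepr, the leptin receptor gene 57.8 kb beyond Leprot, was at 0.0503 ± 0.0162 FPKM in WT and 0.830 ± 0.154 in sgNAT10, and in the sgMyc set it did not pass (-0.39, edgeR adjusted p = 0.379). Leptin receptor mRNA was thus scarce in these cells, below 1 FPKM on average in each mRNA group, while Leprot stood between 15.8 and 112 FPKM in the mRNA libraries.

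Lists of genes related to each of the 7 were then counted, with the 7 left out. The counts that follow stand beside these shares of all genes called higher and lower: 33.7% and 29.6% in sgNAT10 mRNA, 1.81% and 1.28% in Ribo-seq, 7.11% and 8.86% in sgMyc, and 26.6% and 26.9% in sgMyc without replicate 3. In the BMP list, 14 of 22 tested genes rose in sgNAT10 mRNA and 3 fell, with a median log2 change of 0.37. The largest changes were in other extracellular binders and a ligand of BMPs and activins: Bmper went from 0.0894 to 4.94 FPKM (log2 change 2.45, SE 0.0734, limma adjusted p = 2.1e-05), Fst, which encodes follistatin, from 12.6 to 69.1 (2.37, 6.8e-06), and Bmp4 from 3.09 to 13.9 (1.86, 1.8e-05). Bmper (3.18, adjusted p = 0.0248) and Bmp4 (2.08, adjusted p = 0.0296) were the 2 of 18 that passed by limma in Ribo-seq. In sgMyc 4 of 29 rose and 3 fell by edgeR (18 and 9 of 30 without replicate 3), and none of Bmper, Fst and Bmp4 passed there with all libraries. Without replicate 3, Bmp4 passed as higher (0.45, edgeR adjusted p = 0.00154), Fst as lower (-0.77, edgeR adjusted p = 2.6e-07), against its direction in sgNAT10, and Bmper did not pass (0.21, edgeR adjusted p = 0.223).

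In the list of SGK kinases and their PI3K and mTORC2 partners, 11 of 19 genes rose in sgNAT10 mRNA and 5 fell, with a median of 0.19. The largest change was a fall of Ndrg1, a substrate of SGK1, from 24.0 to 8.27 FPKM (-1.44, SE 0.0738, limma adjusted p = 8.4e-05), and Ndrg1 fell in sgMyc as well (-1.07, edgeR adjusted p = 0.00317), where 0 of 22 rose and 2 fell (13 and 4 without replicate 3). Of the glucocorticoid receptor targets, 7 of 13 rose and 6 fell in sgNAT10 mRNA. Errfi1 (2.38, SE 0.0602) and Cebpd (2.06, SE 0.0661) rose, each also in footprints by limma (adjusted p = 0.0148 and 0.0248), while Ddit4 fell (-1.35, SE 0.0469). In sgNAT10 mRNA, targets of serum response factor and YAP were 16 higher and 4 lower of 24. They were led by Myl9, a myosin light chain that went from 0.650 to 19.5 FPKM (3.64, SE 0.0741). In sgMyc these targets were 4 higher and 3 lower of 26 (10 and 12 without replicate 3).

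Of the enzymes of superoxide and peroxide around Sod3, 11 of 27 rose and 8 fell in sgNAT10 mRNA, with a median of 0.01, equal to that of all genes. Cyba, a subunit of the NADPH oxidase that makes superoxide, fell from 23.3 to 0.201 FPKM (-4.34, SE 0.0523, limma adjusted p = 4.5e-06), in footprints from 51.6 to 0.404 (-5.20, limma adjusted p = 0.00858), and in sgMyc from 14.6 to 0.327 (-5.46, edgeR adjusted p = 0.0154). Nqo1, a quinone reductase, rose in all 3 comparisons (1.84 and 1.99 by limma, and 0.67 in sgMyc with an edgeR adjusted p = 0.0161), as did Nfe2l2, the transcription factor NRF2 that induces it (0.91 and 1.11 by limma, and 0.87 in sgMyc with an edgeR adjusted p = 0.0480). Of the interleukin 33 and interleukin 1 receptor genes, 12 of 25 rose and 7 fell in sgNAT10 mRNA and 5 of 29 rose and 2 fell in sgMyc (18 and 4 without replicate 3). Il1rn, the secreted antagonist of the interleukin 1 receptor, had 0.0140 FPKM in WT and 2.39 in sgNAT10, and 0.0434 and 0.851 in the sgMyc set (4.18, edgeR adjusted p = 0.0119).

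Of the leptin receptor pathway and trafficking genes, 9 of 20 rose and 7 fell in sgNAT10 mRNA with a median of 0.03, and the growth hormone receptor gene Ghr (1.79, SE 0.0545) and Irs1 (1.28, SE 0.0496) changed most. Of the PAQR family around Mmd, 3 of 6 rose and 1 fell, led by Paqr4 at 0.90. In the list of GPI anchor synthesis and Thy1 partners, 11 of 27 rose and 8 fell, with a median of 0.03, and Cav1, the caveolin found with GPI-anchored proteins, rose from 33.9 to 117 FPKM (1.76, SE 0.0298) and in footprints from 15.3 to 49.9 (1.64, limma adjusted p = 0.0161). In sgMyc Cav1 did not pass (0.42, edgeR adjusted p = 0.0680), and without sgMyc replicate 3 it passed as higher (0.59, edgeR adjusted p = 5.1e-06).

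Thy1 and Il1rl1 also serve as markers of cell types, so marker lists were read beside them. Of the 15 fibroblast markers 11 had a row in the sgNAT10 mRNA table, and their summed level was 316 and 327 FPKM in the WT libraries and 542 and 566 in sgNAT10, most of it vimentin (Vim, 251 and 432). Of 8 tested, 5 rose and 2 fell, with Pdgfra from 0.961 to 7.91 FPKM (2.18, SE 0.0563) and Col1a2 from 13.1 to 41.9 (1.61, SE 0.0404) at the top. The 2 that fell were Pdgfrb (-0.46) and Col3a1 (-0.27). In the sgMyc set the sum ran from 1375 to 1439 in WT and from 1023 to 1778 in sgMyc. By edgeR 3 of 14 tested rose and 1 fell there, with a median log2 change of 0.92, and without sgMyc replicate 3 the count was 12 higher and 1 lower of 15, with a median of 1.85 (Pdgfra at 1.85). Some markers went against their direction in sgNAT10 mRNA. In sgMyc Pdgfrb was higher (2.66, edgeR adjusted p = 0.0218) and Vim lower (-0.35, edgeR adjusted p = 0.0324). Col3a1 did not pass (2.65, edgeR adjusted p = 0.0606), but without sgMyc replicate 3 it passed as higher (3.21, edgeR adjusted p = 1.0e-08). Of the 11 T cell markers only Lck had a row in the sgNAT10 mRNA table, at 0.663 FPKM in WT and 0.182 in sgNAT10. Of the 13 markers of mast cells and type 2 innate lymphoid cells 2 had a row, led by Areg (3.11 and 2.49). Macrophage markers summed to 5.50 and 6.004 FPKM in WT and 12.2 and 13.7 in sgNAT10, with Cd14 at 2.28 and 9.75. Of the 3 tested, 1 rose, Cd14, and 0 fell, with a median log2 change of 0.04, so the larger sum does not show a rise of the list. Endothelial markers summed to at most 1.59 FPKM and epithelial markers to at most 0.242 in sgNAT10 mRNA. Whether these marker genes bear on the rise of the 7 was not tested.

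In the acRIP-seq, the authors' deposited table lists 1358 peaks in 1062 genes, and of the 7 only Grem1 has any. It has 3, a number reached by 51 of these genes (4.80%). As a frame for 1 of 7, the sgNAT10 mRNA set holds 17379 genes, and nothing is read from that count. A gene with no listed peak is not shown to lack acetylation. One peak of the class 3′ untranslated region, at chr2:113748014-113748670, had a fold enrichment of 6.91 over input in the authors' deposited table, at percentile 93.1 of all peaks, and a log2 difference between genotypes of 0.96. This peak lies wholly outside the RefSeq span of Grem1 given above, just past its 3′ end. Another of that class, at chr2:113749326-113749565, had 1.46 and 0.51 there. The third, of the coding class and in 2 blocks that cover 538 bases in all between 113749774 and 113758646, had 2.15 and -0.32 in the authors' deposited table. Whether that difference is WT over sgNAT10 or the reverse is not stated in the table, and with 1 library a group the table allows no replicate check.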

How the data were processed

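The sgMyc values are raw counts per gene and FPKM, and the sgNAT10 mRNA and Ribo-seq values are FPKM, all deposited by the authors. The submitters' processing notes name FastQC, Trim Galore, Bowtie2, featureCounts and mm10 without roles. The acRIP-seq table deposited by the authors gives a fold enrichment ratio and a log2 difference per peak; its p-value columns and the log2 changes and p-values that the authors deposited with the other tables were not used.

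Genes averaging 1 FPKM or more were tested on log2(FPKM + 1) with limma 3.58.1 in R 4.3.3, using its trend, and the sgMyc counts with edgeR 4.0.16 (filterByExpr, TMM, quasi-likelihood). Translational efficiency and the difference between the edits were limma interactions. P-values were Benjamini-Hochberg adjusted over all genes tested, with a threshold of 0.05. Each SE of an edgeR change was derived from the change and its F statistic. Reads were recovered from ratios of FPKM values as whole numbers (tolerance 1e-05) for nearly all genes. Counting intervals are exact at the 95% level. PCR duplicates are not separated by molecular identifiers. The scripts were tested on simulated data.

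The 7 genes and all lists were chosen with earlier results of these data known. Named beside them are up to 3 genes with the largest change from each list, 2 protein-coding neighbours on each side and the 2 nearest patterns (predicted genes left out), with further genes of the lists chosen after their values were seen. Replicate numbers did not pair samples.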

Additional observations from a re-analysis of the deposited data

How the results depend on the processing

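Each comparison was repeated under other pseudocounts, filters, scalings and tools and with each library left out. All 7 genes kept the direction of their mRNA and footprint change in sgNAT10 and of the difference between the edits under every setting that could fit them; Mmd could not be fitted in footprints at a mean of at least 5 FPKM. The interaction turned to -0.64 and -2.06 for Sod3 and to 1.54 and 0.89 for Mmd with a pseudocount of 0.1 FPKM and in edgeR on recovered reads (for the interaction, chosen after seeing the data), and for Mmd to 0.35 without Ribo-seq WT replicate 1 and 0.21 without Ribo-seq sgNAT10 replicate 1; with libraries left out Mmd ranged from -0.69 to 0.35. The cause was not tested.

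Counts over all genes were less firm. In Ribo-seq 300 genes were called, 87 by limma without a trend, 817 by edgeR on recovered reads and 0 to 9 by limma with a library left out; the fits with 0 had 1175 and 1211 genes at an unadjusted p under 0.05. The lone library of a group is there assumed to vary like the others. In sgMyc 2682 were called, and 680 to 9368 with a library left out, the lowest without WT replicate 3 and the highest without sgMyc replicate 3; DESeq2 called 2090 higher and 1702 lower where edgeR called 1194 and 1488. Of the 7 genes, 1 to 5 were called higher with a library left out. For translational efficiency 24 were called, 3 with weights per assay and 3 to 640 with a library left out, the highest without Ribo-seq WT replicate 2. For the difference between the edits 2153 were called, 1136 to 6115 with a library left out (lowest without sgNAT10 mRNA replicate 2, highest without sgMyc replicate 3), and quantile normalization gave 1219 higher and 982 lower in place of 1457 and 696. In sgNAT10 mRNA upper quartile scaling gave 3122 higher and 4457 lower in place of 3960 and 3471.

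With the replicate number as a block, sgMyc gave 1082 calls and translational efficiency 4, and the same number of the 7 genes, 5, was called in sgMyc. Deviations of same-numbered libraries correlated at 0.0079 in sgNAT10 mRNA, 0.0245 in Ribo-seq and -0.018 to 0.010 in sgMyc. Depth limits Sod3, Mmd and Thy1 in WT footprints, with 12, 12 and 41 reads over both libraries.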
